A study of Rattus norvegicus with 6 samples.

Results

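The genes described here are 33 genes of the p53 and DNA damage checkpoint pathway, measured in the renal cortex of rats given N,N'-dinitrosopentamethylenetetramine (DNPT), an N-nitroso compound, and of rats given corn oil. They comprise 29 genes that p53 is known to activate and the 4 checkpoint kinases Atm, Atr, Chek1 and Chek2, out of 15645 genes that the array's probes name. Probes were assigned to a gene through the RefSeq accession that the scanner files give for each probe. By this rule 29 of the 33 genes had at least 1 probe, 50 probes in all. Atr, Sesn1, Tnfrsf10b and Eda2r had none and were not analysed here. Pmaip1, which encodes the BH3-only protein Noxa, had 1 probe that was not well above background on any array and gave no level. The other 28 genes, 25 p53 targets and 3 kinases, were tested, each through a probe that was well above background on all 6 arrays.

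All 6 animals were male Sprague-Dawley rats that were 5 weeks old when purchased and were kept on a basal diet. The DNPT group (n = 3) was given 200 mg/kg/day for 4 weeks, and the vehicle group (n = 3) received corn oil over those 4 weeks. Total RNA of each sample was labelled with Cy3 and hybridised to a 1-colour Agilent array. Signals below are log2 ratios of a probe's processed signal to the 75th percentile on its array, a change is the DNPT mean minus the vehicle mean on that scale, and errors are SD over n = 3 for levels and standard errors (SE) for changes. The renal cortex is a mixture of cell types, so fewer cells of a type and less RNA per cell cannot be told apart.

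p53 is a transcription factor that is held at a low level by the ubiquitin ligase Mdm2 and accumulates when DNA is damaged. The kinases Atm and Atr sense broken or stalled DNA and activate Chek2 and Chek1, and together they modify p53 and Mdm2 so that p53 escapes degradation. Stabilised p53 switches on genes that halt the cell cycle, repair DNA or start apoptosis, and among them are Mdm2 and Ppm1d, which switch the response off again. In the kidney Cdkn1a, which encodes the cyclin-dependent kinase inhibitor p21, is a widely used transcript marker of genotoxic and tubular stress. The kinases themselves are regulated mainly by phosphorylation, which an array of transcripts does not measure.

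The p53 response element consists of a pair of 10-base half-sites. RefSeq promoter windows of assembly GRCr8, which run from 250 bases before to 50 bases after an annotated start, were found for 24 of the 33 genes (25 windows). An exact match to the consensus p53 half-site was searched on both strands, and it was present in 6 of these 24 genes and in 7.98% of all 33469 windows. A pair of exact matches with a spacer of up to 13 bases was present in 20 of all windows and in 0 of these genes. Sites outside these windows, and pairs that depart from the exact consensus, were not counted. The 6 matches are shown with their flanks, because they include Cdkn1a, the gene with the smallest p of the members. The capitals mark the half-site, sequences run 5′ to 3′ on the strand of the gene, and only bases before the start are printed.
Cdkn1a: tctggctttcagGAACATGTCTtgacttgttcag
Ccng1: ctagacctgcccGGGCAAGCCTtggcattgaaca
Gadd45a: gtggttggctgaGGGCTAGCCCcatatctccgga
Aen: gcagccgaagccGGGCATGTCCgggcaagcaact
Ei24: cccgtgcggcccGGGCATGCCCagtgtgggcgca
Sesn1: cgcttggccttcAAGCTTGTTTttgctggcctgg

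These lie at chr20:7150719-7150752 (Cdkn1a, plus strand), chr10:25685087-25685120 (Ccng1, minus strand), chr4:97486826-97486859 (Gadd45a, minus strand), chr1:142224491-142224524 (Aen, plus strand), chr8:44699429-44699462 (Ei24, minus strand) and chr20:46948535-46948568 (Sesn1, plus strand), all in GRCr8. The half-site began 201 bases before the annotated start in Cdkn1a and 30 bases before it in Aen. In Cdkn1a the 10 bases that follow the half-site fitted the same consensus at 9 of 10 positions. The 250 bases before that start, chr20:7150682-7150931 on the plus strand, are printed to show where the half-site lies.
Cdkn1a: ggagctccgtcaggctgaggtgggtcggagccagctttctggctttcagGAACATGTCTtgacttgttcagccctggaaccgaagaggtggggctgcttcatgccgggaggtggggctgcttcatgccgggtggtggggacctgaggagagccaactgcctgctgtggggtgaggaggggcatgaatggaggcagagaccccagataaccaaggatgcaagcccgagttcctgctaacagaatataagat

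A match describes the letters only. No binding was measured, and the array probes do not tell which start a transcript used.

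The arrays carried 61537 probes that were not controls. Of these, 44730 to 45167 were well above background on vehicle arrays and 42116 to 43402 on DNPT arrays. The 75th percentile of the processed signal was 1163.6 to 1329.5 on vehicle arrays and 952.5 to 1111.7 on DNPT arrays. Values with outlier flags numbered 2 to 6 on vehicle arrays and 14 to 50 on DNPT arrays. The part of these differences in the levels of dim probes was not tested. With 3 arrays a group, precision is limited by their number. Slide 1, scanned on day 1, carried every vehicle array and DNPT replicate 1. Slide 2, scanned on day 2, carried the other DNPT arrays and no vehicle array. Over features with a value on every array, the log2 signals of DNPT replicate 1 correlated with those of vehicle replicate 3 at r = 0.9906, as highly as those of vehicle replicates 1 and 2 with each other (0.9906), which is a description across features. All 8 proximal tubule markers listed for the tissue check were detected, with Slc34a1 between 8.17 and 8.61 in the 6 samples. Of 3 adrenal genes, Cyp11b1 and Star did not pass the detection filter, and Cyp21a1 was detected, at -1.53 ± 0.16 in vehicle rats and -1.68 ± 0.21 in DNPT rats (SD, n = 3 each).

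The comparison of the groups asks whether the p53 programme of the renal cortex differed after DNPT dosing. None of the 28 genes tested passed limma's test at an adjusted p under 0.05, and over all 34915 features the share called was 0.0%. Of the 25 p53 targets, 12 had positive and 13 had negative changes, with a median of -0.01 and a range from -0.46 (Plk3) to 0.54 (Phlda3). Over all features the median was 0.01 and 51.9% of changes were positive. An unadjusted p under 0.05 was reached by 1 target, Cdkn1a, which was lower in DNPT rats (6.16% of all features), and by 0 targets on the higher side (5.95% of all features). The smallest adjusted p among the targets was 0.393 (Cdkn1a). The groups did not overlap in 3 of the 25 targets, Cdkn1a, Bbc3 and Ccng1, and in 20.2% of all features.

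The upper bound of the 95% interval of the change lay below a 2-fold rise for 24 of the 25 targets (91.0% of all features). The whole interval lay within 2-fold in either direction for the same number of targets (81.1% of all features), and the exception to both was Phlda3. The width of the interval to either side of the change had a median of 0.30 on the log2 scale among the targets. These intervals cover the spread between these rats, with any slide difference within the DNPT group, and they are not adjusted for the number of genes.

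**Figure D1:**
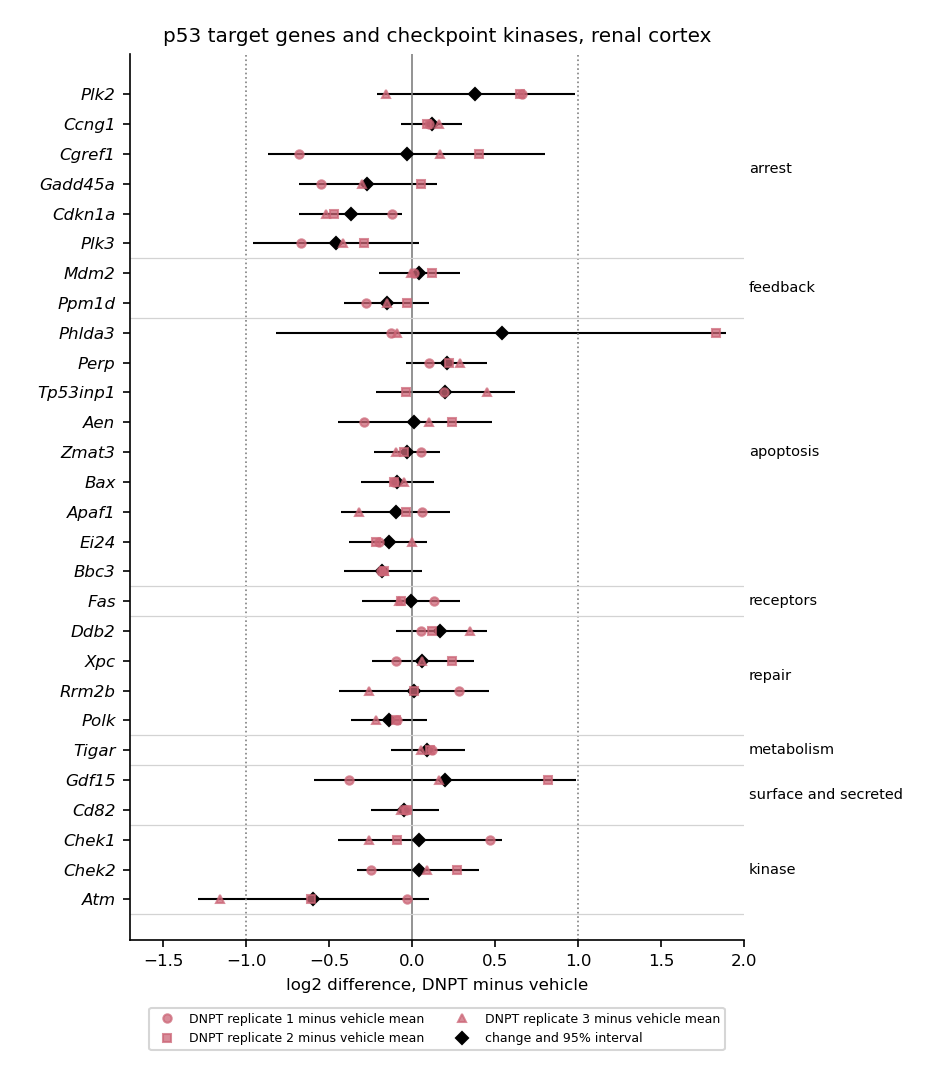
Log2 difference from vehicle for the 25 p53 targets and 3 checkpoint kinases tested, grouped by role. Diamonds are the change with its 95% interval, circles, squares and triangles are DNPT replicates 1, 2 and 3 minus the vehicle mean, and dotted lines mark a 2-fold difference. Most diamonds sit near 0, Cdkn1a is the only gene whose interval stays off 0, and the square of Phlda3 stands 1.83 above the vehicle mean.

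Cell cycle arrest genes had 2 positive and 4 negative changes. Cdkn1a was read by 3 probes of the same accession. The brightest probe gave 5.38, 5.35 and 5.31 in the vehicle rats and 5.22, 4.88 and 4.83 in DNPT replicates 1, 2 and 3. All 3 DNPT values lay below all 3 vehicle values, and DNPT replicate 1 was the nearest to them. The change was -0.37 (SE 0.13, 95% interval -0.68 to -0.06), a 1.29-fold lower level, with an unadjusted p of 0.0268 and an adjusted p of 0.393 by limma.

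A second Cdkn1a probe, A_44_P914438, gave a larger difference in the same direction. It read 0.98, 1.08 and 1.00 in vehicle rats and -0.10, 0.46 and 0.26 in DNPT rats. Its change of -0.82 (SE 0.15, 1.76-fold lower) had an adjusted p of 0.294 when all 44305 probes that passed the filter were tested singly. The third probe, A_44_P515275, was well above background in the 3 vehicle rats and in 0 DNPT rats, and vehicle rats were at least 1.41-fold brighter (adjusted p = 0.339 over all probes, measured means -5.24 and -6.15). It passed the filter only through the vehicle group, so its direction was fixed by the filter and adds nothing to the other two. For this bound each DNPT array contributed either the dimmest of its signals that were well above background or the signal of the probe, whichever was higher. The groups did not overlap in either of the probes detected on all 6 arrays.

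Leaving out 1 rat changed the reading of the brightest probe more than its direction. The change stayed negative in all 17 alternative analyses that kept this probe, from -0.50 to -0.12, and an unadjusted p under 0.05 was reached in 10 of them. That p was 0.0561 to 0.0813 when any vehicle rat, DNPT replicate 2 or DNPT replicate 3 was left out, and 0.00179 without DNPT replicate 1 (adjusted p = 0.0659). In the fit without DNPT replicate 1, slide and dosing cannot be told apart, and 620 features were called. The brightest probe differed from the vehicle mean by -0.12 in DNPT replicate 1 on slide 1. On slide 2 it differed by -0.47 and -0.52 in DNPT replicates 2 and 3. With slide as a block, where only DNPT replicate 1 is compared with vehicle rats, the change was -0.12 for the brightest probe (adjusted p = 0.879) and -1.12 for A_44_P914438 (adjusted p = 0.205). On slide 1 the probes thus gave Cdkn1a differences of unequal size, and that inequality was not tested.

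**Figure D2:**
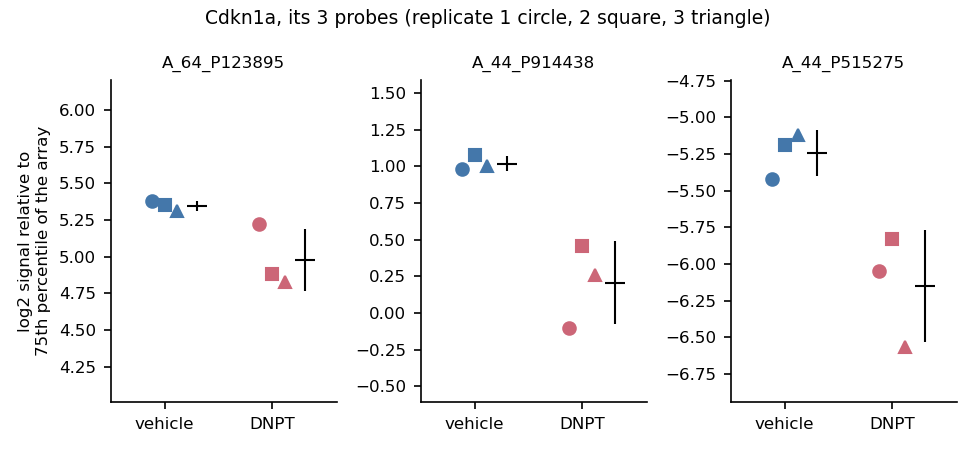
Log2 signal of Cdkn1a relative to the 75th percentile of the array for its 3 probes, in vehicle (blue) and DNPT (red) rats. The panels have axes of equal span, symbols mark the replicate number and crosses show the mean with its SD. DNPT values lie below vehicle values in every panel, which the detection filter fixed for A_44_P515275, and DNPT replicate 1 is the highest of the DNPT rats in the first panel and the lowest in the second.

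Several sets of other transcripts differed in the same samples as Cdkn1a, and their part in its level was not tested. The 8 clock genes listed for the check were chosen with earlier results of these data known, so their count is a description only. All 8 had groups that did not overlap (20.2% of all features), 5 with DNPT rats above and 3 with DNPT rats below. Their summed signal, in multiples of the 75th percentile of the array, was 19.51 to 20.95 in vehicle rats and 63.07 to 113.1 in DNPT rats. Such a linear sum is weighted to the brightest genes, here Dbp, and does not give the direction of a whole list. Dbp, a clock-controlled transcription factor, was at 3.25 to 3.31 and 5.67 to 6.58, and Nr1d1, a clock repressor, was at -2.84 to -1.71 and -0.14 to 0.61. Bmal1, the core clock activator, was lower in DNPT rats (1.56 to 1.73 against -2.04 to -0.17), as were Npas2 (change -2.08) and Nfil3 (change -1.93). The summed signal of 5 T and NK cell markers was 1.93 to 2.19 in vehicle rats and 1.51 to 1.62 in DNPT rats, with no overlap. All 5 changes were negative, and 2 of the 5 genes, Cd2 and Cd3d, lay wholly below the vehicle range (8.32% of all features). Cd2 was dim, at -5.59 to -4.98 in vehicle rats and -6.25 to -6.01 in DNPT rats. Cd3e was dim too, at -7.85 to -5.38 in DNPT rats. For genes this dim the detection filter can favour a lower DNPT level, so their direction adds little. The brightest of the 5 were Cd3d and Nkg7, and Nkg7 overlapped between the groups (-0.36 to 0.11 against -0.64 to -0.22). Sums were also apart for 8 proximal tubule markers (1748 to 1951 against 2025 to 2323) and 4 intercalated cell markers (102.3 to 137.6 against 141.7 to 159.3). They were apart as well for 4 endothelial markers (71.4 to 74.9 against 75.2 to 91.6) and 5 red cell genes (399.7 to 496.5 against 529.4 to 595.3). Taken singly, 3 proximal tubule, 2 intercalated cell, 1 endothelial and 4 red cell genes lay wholly above the vehicle range (11.9% of all features). So did the 2 B cell genes tested. The sum of 6 tubular injury genes overlapped (28.8 to 32.5 against 28.2 to 38.8). Sums overlapped too for markers of thick ascending limb, distal convoluted tubule, principal cells, podocytes, fibroblasts, macrophages and dividing cells. Taken singly, 6 of the 7 dividing cell genes had positive changes. Of these, 2, Ccnb1 and Ccnb2, lay wholly above the vehicle range (11.9% of all features). The change of Ccnb2 was 1.01 (adjusted p = 0.173 by limma). All 4 macrophage changes were negative, and 1 of these genes lay wholly below the vehicle range (8.32% of all features).

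The other arrest genes gave smaller or less even differences. Gadd45a encodes a stress-induced protein that binds PCNA and the kinase Cdk1. Its signal was 3.31, 3.33 and 3.15 in vehicle rats and 2.72, 3.32 and 2.96 in DNPT rats, so that DNPT replicate 2 lay among the vehicle rats. The change was -0.27 (SE 0.17, adjusted p = 0.520) and it was -0.55 in the fit with a slide term, whose value comes from DNPT replicate 1. Plk3, a stress-activated polo-like kinase, was at -0.26, -0.95 and -0.59 in vehicle rats and -1.27, -0.89 and -1.01 in DNPT rats. The groups overlapped, and the change was -0.46 (SE 0.20, adjusted p = 0.426). The second Plk3 probe gave -0.49, but it was well above background in 3 vehicle rats and 2 DNPT rats. The filter may thus have favoured a lower DNPT level for this probe, and it adds little to the first.

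Plk2, a related polo-like kinase, had a positive change of 0.38 (SE 0.24, adjusted p = 0.517). It was at -3.37, -3.36 and -3.53 in vehicle rats and at -2.76, -2.77 and -3.58 in DNPT rats, so DNPT replicates 1 and 2 stood above the vehicle range and DNPT replicate 3 below it. Without DNPT replicate 3 the change was 0.66 (adjusted p = 0.350). Ccng1 encodes cyclin G1, which works with the phosphatase PP2A to regulate Mdm2. It was at 1.97, 1.96 and 2.01 in vehicle rats and at 2.08, 2.07 and 2.14 in DNPT rats. It was the only target whose DNPT values all lay above the vehicle values (11.9% of all features), but the change was 0.12 (SE 0.07, adjusted p = 0.521) and its dimmer second probe had a change of -0.10. Cgref1, a secreted regulator of cell growth, varied from -3.05 (DNPT replicate 1) to -1.97 (DNPT replicate 2) and had a change of -0.03 (SE 0.34).

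Neither feedback gene passed the test. Mdm2 was at 1.08, 1.07 and 0.85 in vehicle rats and at 1.01, 1.13 and 0.99 in DNPT rats, a change of 0.04 (SE 0.10, adjusted p = 0.873). Its 95% interval ran from 0.868 to 1.22 as a ratio of DNPT to vehicle. The dimmer Mdm2 probe had a change of 0.20 (SE 0.09, adjusted p = 0.442 over all probes). Ppm1d, the phosphatase Wip1 that removes activating phosphates from p53 and from checkpoint kinases, had a change of -0.15 (SE 0.10, adjusted p = 0.543).

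Apoptosis genes had 4 positive and 5 negative changes among the 9 tested, and no test passed. Bax, which opens the outer mitochondrial membrane, was at 2.91, 2.96 and 3.11 in vehicle rats and at 2.88, 2.88 and 2.94 in DNPT rats. Its change was -0.09 (SE 0.09, adjusted p = 0.665), its second probe gave -0.10, and the groups overlapped. Bbc3 encodes Puma, a BH3-only activator of Bax. It was at -0.31, -0.35 and -0.10 in vehicle rats and at -0.44, -0.43 and -0.43 in DNPT rats. Together with Cdkn1a it was 1 of the 2 targets whose DNPT values all lay below the vehicle values (8.32% of all features), by a change of -0.18 (SE 0.09, adjusted p = 0.469).

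Phlda3, which opposes the survival kinase Akt at the membrane, had the highest change of the targets and the widest spread. It was at -3.41, -3.29 and -3.69 in vehicle rats and at -3.59, -1.64 and -3.55 in DNPT rats. DNPT replicate 2 was thus 3.55-fold above the vehicle mean, while the other two lay within the vehicle range. The change of 0.54 (SE 0.55, adjusted p = 0.686) became -0.11 without DNPT replicate 2. The array held 1 probe for the gene.

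The remaining apoptosis genes lay between -0.14 and 0.21. Perp, a membrane protein of desmosomes that promotes apoptosis, had a change of 0.21 (SE 0.10, adjusted p = 0.448) with 4.98, 5.16 and 4.93 in vehicle rats and 5.13, 5.24 and 5.31 in DNPT rats. Tp53inp1, a stress-induced p53 cofactor, was at 0.20 (SE 0.17). Aen, a nuclease, was at 0.01 and Zmat3, an RNA-binding protein, at -0.03. Apaf1, the scaffold of the apoptosome, was at -0.10 and Ei24, a membrane protein of the endoplasmic reticulum, at -0.14. Fas, the only death receptor of the list with a tested probe, had a change of -0.01 (SE 0.12) by its brightest probe. Its 2 dimmer probes were well above background in 3 vehicle rats and 1 DNPT rat, so the filter favoured a lower DNPT level, and their changes are not given.

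**Figure D3:**
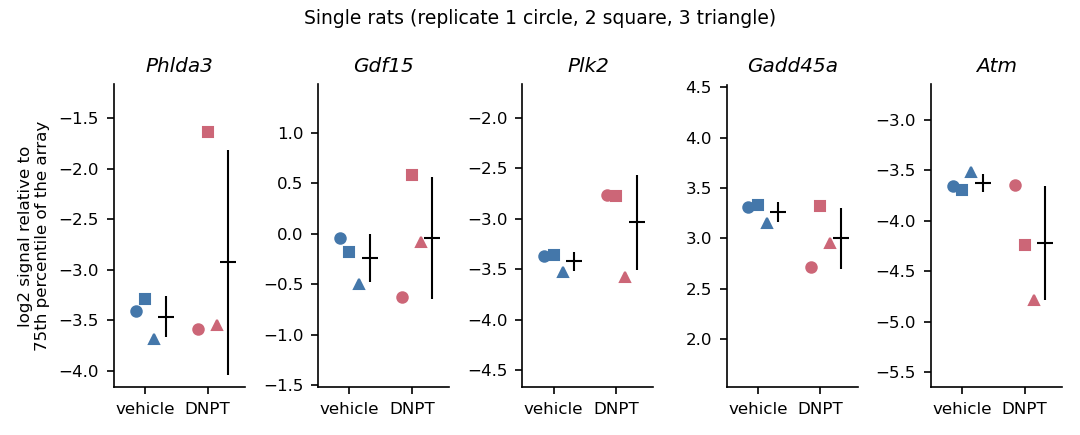
Log2 signal relative to the 75th percentile of the array for 5 genes in which the DNPT rats disagreed, with vehicle in blue, DNPT in red, symbols for the replicate number and crosses for the mean with its SD. The panels have axes of equal span. DNPT replicate 2 (square) is far above the others in Phlda3 and highest in Gdf15, while Atm runs from -3.65 to -4.78 across the DNPT rats.

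DNA repair targets had 3 positive changes and 1 negative change. Ddb2 and Xpc, which recognise bulky lesions for nucleotide excision repair, had changes of 0.17 (SE 0.11, adjusted p = 0.525) and 0.06 (SE 0.12). Polk, a polymerase that copies past damaged bases, was at -0.14 (SE 0.09), and Rrm2b, a p53-inducible subunit of ribonucleotide reductase, at 0.01 (SE 0.18). The intervals of these 4 genes all lay within 2-fold. Tigar, a phosphatase that lowers glycolytic flux, was at 0.09 (SE 0.09) by its brightest probe and at -0.15 by its dimmer probe. The tetraspanin Cd82 was at -0.05 (SE 0.08).

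Gdf15, a secreted stress cytokine, was at -0.04, -0.18 and -0.50 in vehicle rats and at -0.62, 0.58 and -0.08 in DNPT rats. DNPT replicate 2 was the highest sample and DNPT replicate 1 the lowest. The change was 0.20 (SE 0.32, adjusted p = 0.802) and the dimmer probe gave 0.16. The summed signal of 7 genes of dividing cells was also highest in DNPT replicate 2 (5.67), against 4.04 and 2.80 in DNPT replicates 1 and 3 and 2.65 to 3.36 in vehicle rats. The part of dividing cells in the Gdf15 and Phlda3 values was not tested.

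The targets were also read in each DNPT rat on its own. Set against the vehicle mean, the 25 targets had a median difference of -0.09 for DNPT replicate 1, of 0.01 for replicate 2 and of -0.07 for replicate 3. In DNPT replicate 1, 5 targets lay above and 10 below the whole vehicle range (30.7% and 23.9% of all features). In replicate 2 the counts were 10 above and 5 below (34.8% and 29.9% of all features), and in replicate 3 they were 4 above and 11 below (33.8% and 34.0%). Phlda3 in replicate 2 was the only target of any rat to exceed the vehicle mean by more than 1 log2 unit. DNPT replicate 3 had the highest level of liver transcripts, with a sum of 21.3 over 5 genes against 0.966 to 3.06 in the other rats.

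The checkpoint kinases were dim, and none of the 3 passed the test. Atm was at -3.66, -3.69 and -3.52 in vehicle rats and at -3.65, -4.24 and -4.78 in DNPT rats. DNPT replicate 1 lay among the vehicle rats, and the 2 DNPT rats of slide 2 lay below them. The change was -0.60 (SE 0.28, 95% interval -1.29 to 0.10, adjusted p = 0.437), and it was -0.03 with slide as a block and -0.88 without DNPT replicate 1 (adjusted p = 0.105). For Atm, slide and dosing can thus be compared only through DNPT replicate 1. The dimmer Atm probe gave -0.21 (SE 0.19). 

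Chek1, the effector kinase of Atr, was at -4.36, -4.53 and -4.43 in vehicle rats and at -3.97, -4.53 and -4.70 in DNPT rats. The DNPT values lay on both sides of the vehicle range, with a change of 0.04 (SE 0.20, adjusted p = 0.940). With slide as a block, where only DNPT replicate 1 is compared with vehicle rats, the Chek1 change was 0.47. Chek2, the effector kinase of Atm, was at -2.98, -2.91 and -3.02 in vehicle rats and at -3.22, -2.70 and -2.88 in DNPT rats. Its change was also 0.04 (SE 0.15, adjusted p = 0.930), it was -0.25 with slide as a block, and its second probe gave 0.12. The median of the 3 kinases was 0.04, beside -0.01 for the targets, and no test was made of that difference.

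**Figure D4:**
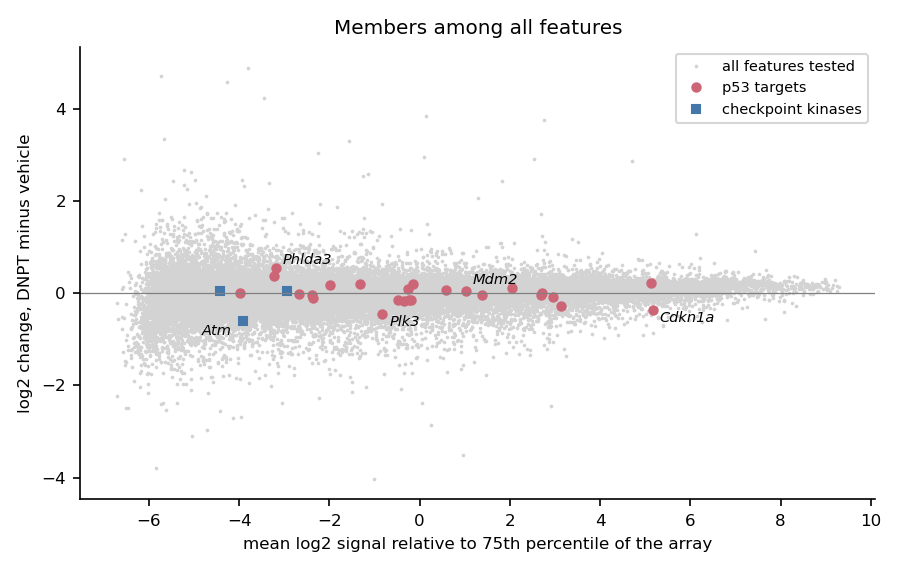
Log2 change, DNPT minus vehicle, against mean log2 signal relative to the 75th percentile of the array, for all 34915 features (grey), the 25 p53 targets (red circles) and the 3 checkpoint kinases (blue squares). The targets run from dim to bright features without reaching either end of the range of signals, the kinases are among the dimmer features, and all of them lie inside the cloud of all features.

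Among 54 other genes of the pathway that were tested, 0 passed over all features and 8 had an unadjusted p under 0.05 (12.1% of all features). Of 10 regulators and partners of p53, 4 had positive and 6 had negative changes (median -0.10). The smallest p in this list belonged to Tp73, a p53 relative, with a change of -1.21 (SE 0.31, adjusted p = 0.354). Its groups did not overlap (20.2% of all features). Cdkn2a, whose locus encodes the Mdm2 inhibitor Arf, was at -0.65 (SE 0.22, adjusted p = 0.394). Usp7, the deubiquitinase of Mdm2, was at 0.17 (SE 0.07, adjusted p = 0.419).

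Of 27 further p53 target genes, 14 had positive and 13 had negative changes (median 0.01), and 4 were higher (5.95% of all features) and 1 was lower (6.16%) at an unadjusted p under 0.05. The 3 with the smallest p were Thbs1, an inhibitor of blood vessel growth (0.70, SE 0.14, adjusted p = 0.294), Btg2, an antiproliferative gene (-0.49, SE 0.12, adjusted p = 0.353), and Cdip1, a proapoptotic gene (0.39, SE 0.11, adjusted p = 0.362). Btg2 was at 0.41, 0.34 and 0.54 in vehicle rats and at 0.15, -0.16 and -0.18 in DNPT rats. Its DNPT values all lay below its vehicle values (8.32% of all features).

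Of 17 checkpoint partners, 9 had positive and 8 had negative changes (median 0.07). Wee1, the kinase that inhibits Cdk1, had the smallest p (0.47, SE 0.15, adjusted p = 0.383), with 0.92, 1.01 and 0.88 in vehicle rats and 1.29, 1.23 and 1.70 in DNPT rats. Cdc25b, the phosphatase that opposes Wee1, was at 0.21 (SE 0.09, adjusted p = 0.430), and Atrip, the partner of Atr, at 0.23 (SE 0.11, adjusted p = 0.431). Over the list of 17, the DNPT rats stood wholly above the vehicle range in 3 genes and wholly below it in 2, beside 20.2% of all features without overlap.

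**Figure D5:**
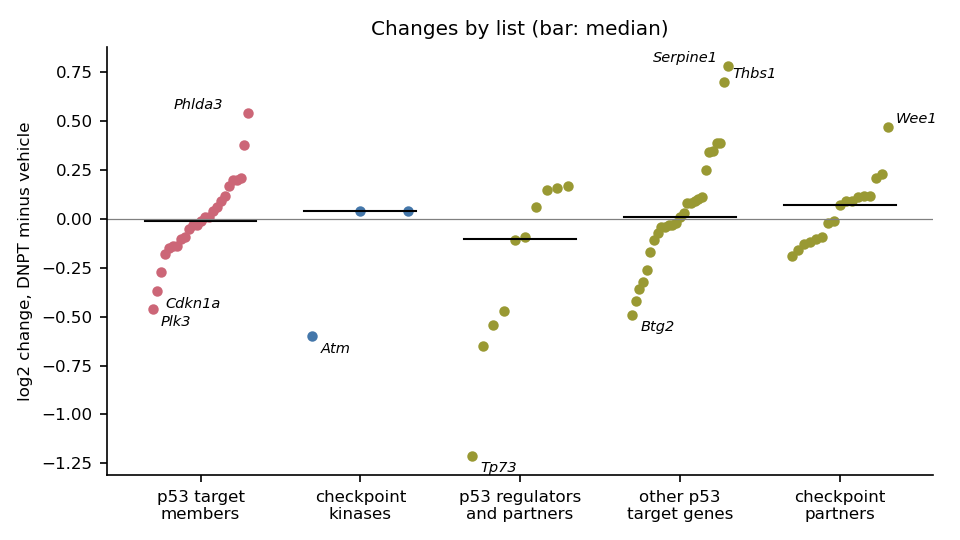
Log2 change, DNPT minus vehicle, of each tested gene (points, sorted within a list) for the 25 p53 target members, the 3 checkpoint kinases and 3 further lists of 10, 27 and 17 genes, with bars at the medians. Medians lie between -0.10 and 0.07, and Tp73 at -1.21 is the lowest point.

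Some members were read by several probes. Of the 15 genes with more than 1 probe well above background on all 6 arrays, 11 had changes of the same sign in all of these probes. The exceptions were Aen, Ccng1, Polk and Tigar, in which changes ran from -0.15 to 0.12. The SD was larger in the DNPT group than in the vehicle group for 16 of the 25 targets, beside 61.3% of all features, with median SDs of 0.16 and 0.12. The DNPT arrays were split over slides 1 and 2 and the vehicle arrays were not. The DNPT SD therefore holds any slide difference as well as the spread between rats.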

How the data were processed

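Per the labels, total RNA of renal cortex was labelled with Cy3 and hybridised to 1-colour Agilent arrays, and per the submitters' processing notes the scans were read with Agilent Feature Extraction 10.7. The deposited scanner files hold the linear processed intensity of each spot, per the file headers. Values in the deposited table are a ratio: they equal that signal over about the 75th percentile of the array, a step the sources used here do not state. The ratio was checked on the brighter probes only, 31591 to 31962 per array, and 100% of these lay within 0.5% of 1 factor.

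Control spots and 113 values with outlier flags were left out. Signals were scaled to each array's 75th percentile on the log2 scale and tested for probes well above background on at least 3 of 6 arrays, with at least 2 values per group. Of 61537 probes, 28206 had an accession of 1 gene in RefSeq (GRCr8, names only), 0 of several and 33331 of none. A gene was represented by its brightest tested probe, and unnamed probes stood alone. The groups were compared by limma 3.58.1 (lmFit, eBayes; R 4.3.3) in a two-sided test with Benjamini-Hochberg adjustment over 34915 features. The fit was tested on simulated data. Figures were drawn with matplotlib 3.10.9. All members are named. Values of every sample are given for members with an unadjusted p under 0.05, Cdkn1a, Mdm2, Bax and the kinases, and of each further list the 3 genes with the smallest p are named. The values of 1 further gene are not reported here. The members, the lists and this rule were chosen with earlier results of these data known. Other genes given with every sample were chosen after their values were seen. Alternatives were quantile normalization, normexp with an offset of 50 (on the median spot signal, although the mean had been planned), scaling to the median, the deposited table, 2 other filters on dim probes, the mean over probes, a variance trend with intensity, array weights, blocks for slide or for replicate number, slide 1 only and leaving out each sample. Testing each Cdkn1a probe singly was added after seeing the data.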

Additional observations from a re-analysis of the deposited data

How the results depend on the processing

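The number of features called, 0 (4227 at an unadjusted p under 0.05), was 5 with normexp and quantile normalization (4 higher, 1 lower), 1 with slide as a block and 1 on slide 1 alone. At an unadjusted p under 0.05 there were 8737 features with no filter on dim probes, 6348 with array weights, 2393 with slide as a block and 2709 on slide 1 alone. With 1 sample left out the number called ranged from 0 to 620. The 620 (39 higher, 581 lower) were reached without DNPT replicate 1, where every DNPT array is on slide 2 and every vehicle array on slide 1, and 3 without vehicle replicate 2. None of the 28 genes tested was called in any of the 18 alternatives (29 genes were tested with no filter on dim probes), and with 1 sample left out 0 to 2 of them had an unadjusted p under 0.05. The median change of the p53 targets was -0.09 with slide as a block and on slide 1 alone, and -0.08 to 0.01 with 1 sample left out. The median of the kinases was -0.17 to 0.03 with 1 sample left out. Of the other pathway genes, 0 to 1 were called with 1 sample left out, the 1 being Cdkn2a without DNPT replicate 1. Deviations from the group means correlated at -0.18, -0.06 and -0.18 between same-numbered samples, and no vehicle sample matched the DNPT sample of its own number best. With so few rats, and the DNPT arrays split over slides, this check cannot exclude that the replicate numbers pair the rats. With the replicate block, 0 features were called (3094 at an unadjusted p under 0.05) and Cdkn1a had a change of -0.37 (adjusted p = 0.551). The cause of these shifts was not tested. Of the 28 genes, 14 kept the sign of their change in all 18 alternatives, Cdkn1a and Atm among them, and 14 did not, Mdm2, Phlda3, Gdf15, Chek1 and Chek2 among them.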
